A study of Mus musculus with 6 samples.

Results

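Fibroblast growth factors (FGFs) and an FGF carrier were followed in RNA of mouse tooth germs: the ligand genes Fgf1, Fgf2, Fgf3, Fgf4, Fgf7, Fgf9, Fgf10, Fgf18 and Fgf20, and Fgfbp3, which encodes a secreted FGF-binding protein. These 10 genes were taken by symbol out of 23420 in the count tables, and each symbol was found. The libraries came from C57BL/6 embryos labelled E15.5, 3 of them wild type and 3 Smad7-/-. Smad7 encodes an inhibitory SMAD, which restrains TGF-beta and BMP signalling. The labels do not give the Smad7 allele, the kind of tooth, or whether germs of several embryos were pooled. They also do not say whether libraries came from separate embryos, so each p-value reflects the spread among these libraries alone. Sex-linked genes, given below, differed within each genotype, so the libraries of a group did not all come from the same embryo. The spread between libraries of the same sex may still be technical.

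FGFs are secreted proteins that bind heparan sulfate in the matrix and signal through tyrosine kinase receptors. In the tooth germ they carry signals in both directions. Fgf4, Fgf9 and Fgf20 are known from the enamel knot, the epithelial signalling centre that shapes the crown, and Fgf3 and Fgf10 from the dental mesenchyme, whose ligands keep the epithelium growing. Fgf7 and Fgf18 are made by mesenchyme and by bone-forming tissue around the germ. Fgf1 and Fgf2 lack a classical signal peptide and leave cells by another route. FGF-binding proteins such as Fgfbp3 release ligands from the matrix and carry them to receptors.

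The libraries held 37591888 to 56575476 counts. Smad7 had 859 to 1097 counts per library in wild type and 41 to 80 in Smad7-/-. The first principal component, with 33.5% of the variance, split them across genotype. A first set held wild-type library 1 beside Smad7-/- libraries 1 and 2, and a second set held Smad7-/- library 3 beside wild-type libraries 2 and 3. Xist, which is transcribed from the silenced X chromosome of females, was present in 1 library of each genotype (wild-type 1, Smad7-/- 3), and the Y-linked gene Ddx3y in the other 4. Products of ameloblasts and odontoblasts, the cells that secrete enamel and dentin, were abundant in all 6 libraries. Amelx, the main enamel matrix gene, reached 5999 to 13709 CPM (the usual unit of counts scaled to library size, here sizes adjusted by the TMM method) and Dspp, the dentin matrix gene, 1565 to 3355. In mouse molars these cells differentiate after the cap stage, while Fgf4, Fgf20 and Dkk4 belong to the enamel knot of the cap stage. Dkk4 had 6 counts in wild-type library 1 and 0 in the other 5. Whether the age on the labels fits the tissue was not tested.

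None of the 8 genes with enough counts for a test passed at an adjusted p under 0.05 (edgeR quasi-likelihood test, adjusted over 15284 genes), where 0.0262% of all tested genes did. Unadjusted p-values lay under 0.05 for 5 of the 8, against 5.14% of all tested genes. Those 5 were Fgfbp3, Fgf2, Fgf7 and Fgf18 on the higher side in Smad7-/- and Fgf1 on the lower side. In the same 4 genes every Smad7-/- library lay above every wild-type library, which held for 4.97% of all tested genes. No gene of the 8 lay wholly below wild type, where 3.91% of all tested genes did. By DESeq2 on the same 15284 genes, Fgfbp3 alone passed on the higher side, as did 0.268% of all tested genes, and by limma-voom 0 passed. Fgf2 and Fgf18 met the filter on low counts only because of their Smad7-/- libraries (1 and 2 wild-type libraries were over its limit of 0.207 CPM), so their places in these counts carry no weight. The genes were chosen with earlier results of these data known, so the shares above describe them and test nothing about the group. In RNA of whole germs fewer cells of a type and less RNA per cell cannot be told apart.

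**Figure D1:**
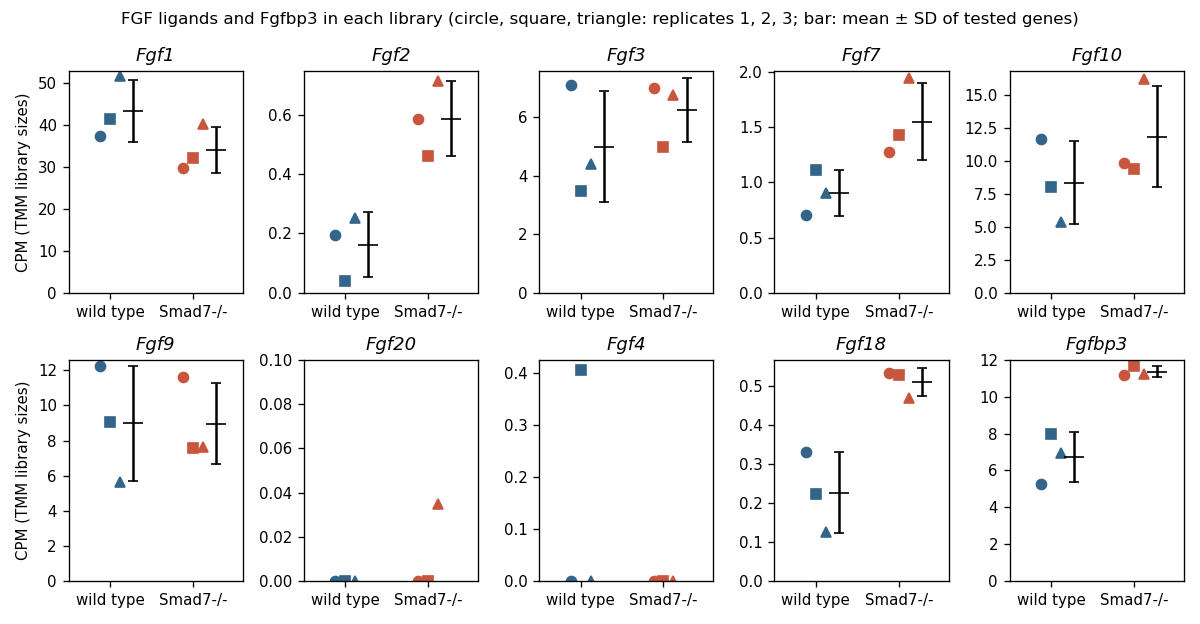
Level of each gene in CPM (vertical axes, each from 0) in 3 wild-type and 3 Smad7-/- libraries, with the mean and SD for the 8 tested genes. In the panels of Fgf2, Fgf7, Fgf18 and Fgfbp3 the Smad7-/- points all sit above the wild-type points, while Fgf4 and Fgf20 are at 0 in 5 of 6 libraries. Fgf2 and Fgf18 met the filter on low counts only through Smad7-/-.

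Fgfbp3 was the carrier of the group and the gene with the smallest p. Wild-type libraries 1 to 3 held 270, 394 and 332 Fgfbp3 counts, and the Smad7-/- libraries 420, 508 and 646. In CPM these were 5.27, 7.97 and 6.95 against 11.2, 11.7 and 11.2. The Smad7-/- libraries were nearly equal and all above the highest wild-type library, and the wild-type libraries were more spread. The means were 6.73 ± 1.36 and 11.4 ± 0.282 CPM (SD, n = 3 libraries per group), a ratio of 1.69. The log2 difference was 0.76 ± 0.17 (SE; 95% interval 0.37 to 1.14; edgeR adjusted p = 0.571), with the 35th smallest p of all tested genes. DESeq2 gave 0.75 ± 0.18 with an adjusted p of 0.0185. When each library was left out of the DESeq2 fit in turn, an alternative added after the data were seen, Fgfbp3 passed in 2 of 6 fits. It passed when wild-type library 1 (0.61, adjusted p = 0.0283) or wild-type library 2 (0.90, 0.00924) was dropped. The call ended without wild-type library 3 or Smad7-/- library 1, 2 or 3 (0.78, 0.77, 0.74 and 0.76; DESeq2 adjusted p = 0.0506, 0.142, 0.194 and 0.0670). The difference had the same sign in both sets of libraries, at 1.11 in the first and 0.58 in the second (log2 of mean CPM + 0.05, with 1 library in an arm). Fgfbp3 lies on chromosome 19 at 36917550 to 36919615 (mm10, reverse strand) and overlaps no other annotated gene.

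Fgf3, Fgf7 and Fgf10 belong to a subfamily of FGFs that act on epithelium from the mesenchyme. Fgf7, also called keratinocyte growth factor, had 36, 55 and 43 counts in wild type and 48, 62 and 112 in Smad7-/-. These were 0.702, 1.11 and 0.900 CPM against 1.28, 1.43 and 1.94. The groups did not overlap, and the margin between the highest wild-type and the lowest Smad7-/- library was small. On the log2 scale Fgf7 differed by 0.78 ± 0.32 (SE; 95% interval 0.08 to 1.49; edgeR adjusted p = 0.900), with values of 0.90 and 0.92 within the first and second sets. Fgf7 lies on chromosome 2 at 126034658 to 126091185, within the span of Fam227b on the opposite strand. The exons of these genes share no bases, and Fam227b had 0 counts in 5 libraries and 1 in Smad7-/- library 3.

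Fgf10, a ligand needed for upkeep of the epithelial stem cells of the incisor, stood at 11.6, 8.01 and 5.38 CPM in wild type and at 9.88, 9.43 and 16.2 in Smad7-/-. The groups overlapped, and in each genotype the library that carried Xist was the highest. On the log2 scale Fgf10 differed by 0.51 ± 0.30 (SE; 95% interval -0.18 to 1.19; edgeR adjusted p = 0.999). It had opposite signs in the 2 sets of libraries, -0.27 in the first and 1.27 in the second. Dropping Smad7-/- library 3 gave 0.21, dropping wild-type library 3 gave 0.28, and dropping wild-type library 1 gave 0.82. Fgf10 lies on chromosome 13 at 118669791 to 118792115 and shares 123 exonic bases with the antisense gene Gm16263. The library kit does not mark strand, so reads from that stretch cannot be assigned to either gene.

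Fgf3, a mesenchymal ligand that acts alongside Fgf10 in the tooth, had 364, 171 and 210 counts in wild type (3.46 to 7.10 CPM) and 263, 217 and 389 in Smad7-/- (4.99 to 7.0 CPM). In CPM, wild-type library 1 was the highest of the 6, and the groups overlapped. The log2 difference was 0.32 ± 0.27 (SE; 95% interval -0.27 to 0.92; edgeR adjusted p = 0.999), with -0.24 in the first set and 0.77 in the second. Dropping wild-type library 1 gave 0.67 and dropping wild-type library 2 gave 0.12.

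Fgf4, Fgf9 and Fgf20 are the epithelial ligands of the enamel knot, and they were found at very unequal levels. Fgf9 had 627, 448 and 270 counts in wild type and 436, 330 and 441 in Smad7-/-, or 12.2, 9.06 and 5.65 CPM against 11.6, 7.59 and 7.65. The wild-type range enclosed all 3 Smad7-/- libraries. For Fgf9 the log2 difference came to -0.01 ± 0.28 (SE; edgeR adjusted p = 1.00), and its 95% interval from -0.64 to 0.62 leaves room for a change of that size in either direction. Its sign turned when Smad7-/- library 2 (0.10), Smad7-/- library 3 (0.09) or wild-type library 1 (0.27) was dropped. The lowest values were -0.25 without wild-type library 3 and -0.24 without Smad7-/- library 1. Within the sets the difference was -0.35 and 0.06, so Fgf3, Fgf9 and Fgf10 all had opposite signs in the 2 sets, whose source was not tested. Fgf9 lies on chromosome 14 at 58070547 to 58112720.

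Fgf20, a ligand of the same subfamily as Fgf9, had 2 counts in Smad7-/- library 3 and 0 in the other 5 libraries. Fgf4, a target of Wnt signalling in the enamel knot, had 20 counts in wild-type library 2, or 0.404 CPM, and 0 in the other 5. At these depths 3 counts, the upper limit that a count of 0 allows, correspond to 0.0521 to 0.0799 CPM, for counting error alone. Neither gene could be tested, and no genotype difference was detectable at this depth. Fgf20 lies on chromosome 8 at 40279166 to 40308331 and shares 202 exonic bases with Micu3 on the opposite strand.

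Fgf3 and Fgf4 are neighbours on chromosome 7, at 144838083 to 144844436 and 144847367 to 144865243, followed by Fgf15 and by the cyclin D gene Ccnd1 at 144929931 to 144939925. Ccnd1 was among the 4 genes that edgeR called in the whole table, with 20.3 to 22.1 CPM in wild type and 8.73 to 11.5 in Smad7-/- (log2 difference -1.11 ± 0.14 SE; adjusted p = 0.0339). The Ccnd1 groups were far apart, while those of Fgf3 overlapped. Fgf15, an FGF that circulates as a hormone from the gut in adults, had 2 to 16 counts per library and was not tested.

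Fgf1 and Fgf2 form the subfamily without a classical signal peptide. Fgf1, which binds all FGF receptors, had 37.4, 41.4 and 51.7 CPM in wild type and 29.9, 32.2 and 40.2 in Smad7-/-. Smad7-/- library 3 lay within the wild-type range and the other two lay below it. The log2 difference was -0.35 ± 0.15 (SE; 95% interval -0.68 to -0.02; edgeR adjusted p = 0.918), with -0.27 and -0.21 in the first and second sets. Dropping wild-type library 3 gave -0.21. Fgf1 lies on chromosome 18 at 38838673 to 38929472. Arhgap26 on the opposite strand spans it, shares no exonic bases with it and stood at 0.04 ± 0.16 (log2, SE).

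Fgf2, the basic FGF, had 10, 2 and 12 counts in wild type and 22, 20 and 41 in Smad7-/-. In CPM these were 0.195, 0.0404 and 0.251 against 0.586, 0.460 and 0.712. The lowest Smad7-/- library had more than the highest wild-type library, and all 6 values were near the limit of what could be tested. Fgf2 met the filter on low counts only because of its Smad7-/- libraries, so this separation and the interval below carry no weight. The log2 difference was 1.84 ± 0.56 (SE; 95% interval 0.62 to 3.10; edgeR adjusted p = 0.705). Dropping wild-type library 2, which held only 2 counts, gave 1.39, and dropping wild-type library 3 gave 2.29. Fgf2 lies on chromosome 3 at 37348346 to 37410108 and shares 640 exonic bases with Nudt6, which is transcribed from the opposite strand across its end. Reads from the bases shared with Nudt6 cannot be assigned to a strand. Another 255 exonic bases are shared with Gm43439, a processed transcript on the same strand. Nudt6 itself did not pass, at 0.00 ± 0.25 (log2, SE; edgeR adjusted p = 1.00), with 84 to 165 counts per library.

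Fgf18, a ligand of skeletal growth and of the tissue around the tooth, had 17, 11 and 6 counts in wild type and 20, 23 and 27 in Smad7-/-. In CPM these were 0.332, 0.222 and 0.126 against 0.532, 0.529 and 0.469. The Smad7-/- libraries were close together and above all 3 wild-type libraries. Fgf18 met the filter on low counts only because of its Smad7-/- libraries, so this separation and the interval below carry no weight. For Fgf18 the log2 difference came to 1.15 ± 0.45 (SE; 95% interval 0.16 to 2.16; edgeR adjusted p = 0.873), with 0.61 and 1.21 within the first and second sets. Fgf18 lies on chromosome 11 at 33117430 to 33147400 and overlaps no other annotated gene.

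**Figure D2:**
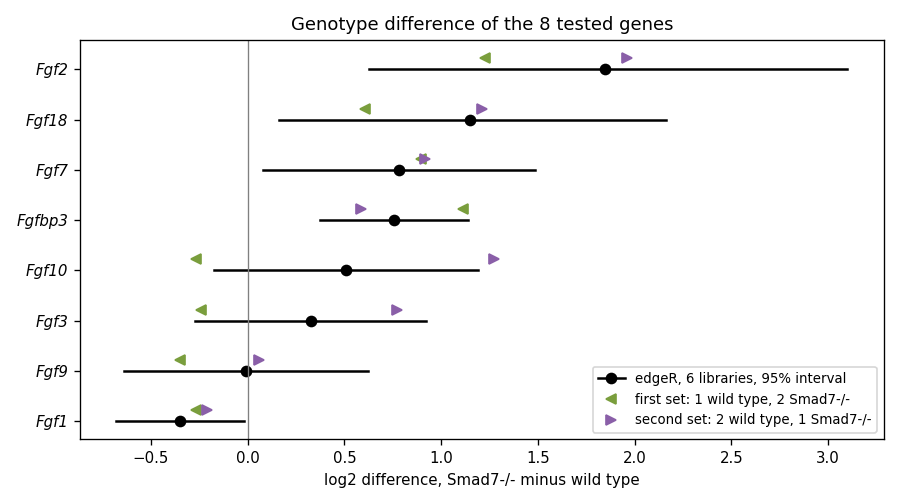
Log2 difference between Smad7-/- and wild type (horizontal axis) for the 8 tested genes, with the 95% interval of the edgeR fit and the differences within the 2 sets of libraries as triangles. The intervals of Fgf3, Fgf9 and Fgf10 cross 0, and the triangles of Fgf3, Fgf9 and Fgf10 lie on both sides of 0.

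The sequence before the start of a gene is where regulatory proteins, SMADs among them, can bind. RefSeq promoter windows (GRCm38.p6) were examined for 8 of the 10 genes. Windows of Fgf1 and Fgf20 were not examined, which is no evidence that they lack one. The 250 bases before the start are printed for Fgfbp3, Fgf7 and Fgf18, whose groups did not overlap. For Fgf18 that carries no weight, as it met the filter on low counts only because of its Smad7-/- libraries. The window of Fgf2, the fourth such gene, lies wholly inside the gene as GENCODE annotates it and is not printed. All 250 bases of the windows of Fgf3, Fgf4, Fgf9 and Fgf10 lie inside their annotated genes too. For these genes and Fgf2, the motif counts below do not describe sequence before the annotated start. The last 16 bases of the Fgfbp3 window also lie inside the gene as GENCODE starts it. The strand is that of the gene, and capitals mark CAGAC or its complement GTCTG, the core of the box that SMAD3 and SMAD4 bind.
Fgfbp3, chr19:36919600-36919849, reverse strand: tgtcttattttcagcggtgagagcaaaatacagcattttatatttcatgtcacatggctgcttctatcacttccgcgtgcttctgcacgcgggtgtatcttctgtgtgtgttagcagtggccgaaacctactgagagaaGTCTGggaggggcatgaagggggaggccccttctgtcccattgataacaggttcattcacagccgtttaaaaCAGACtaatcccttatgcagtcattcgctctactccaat
Fgf7, chr2:126034408-126034657, forward strand: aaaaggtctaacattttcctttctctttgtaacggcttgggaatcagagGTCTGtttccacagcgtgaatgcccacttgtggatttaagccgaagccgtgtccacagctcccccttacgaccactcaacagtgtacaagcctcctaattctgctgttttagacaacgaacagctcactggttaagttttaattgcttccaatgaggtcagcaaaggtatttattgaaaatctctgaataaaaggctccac
Fgf18, chr11:33147401-33147650, reverse strand: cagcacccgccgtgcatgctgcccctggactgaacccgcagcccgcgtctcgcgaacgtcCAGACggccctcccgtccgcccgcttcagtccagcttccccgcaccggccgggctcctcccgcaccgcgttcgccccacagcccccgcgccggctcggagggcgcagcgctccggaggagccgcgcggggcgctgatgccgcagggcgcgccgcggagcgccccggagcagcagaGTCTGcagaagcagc

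The CAGAC box stood 2 times in the windows of Fgfbp3 and Fgf18, 1 time each in those of Fgf2, Fgf7 and Fgf9, and 0 times in those of Fgf3, Fgf4 and Fgf10. It is short and common: 42.2% of 32851 promoter windows of this length hold it on either strand. GGCGCC, a GC box bound by BMP-regulated SMADs, stood 1 time in the windows of Fgf2 and Fgf4, against 9.59% of all windows. The 8-base palindrome GTCTAGAC (0.167% of windows) and the AP-1 letters TGACTCA (4.46%) were in none of the 8. None of the 4 motifs overlapped another there, and a match describes letters, not binding.

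Per kilobase of exon (RPKM, from the union of annotated exons) the genes ranged widely. Fgf1 led the wild-type libraries at 7.96 ± 1.35 RPKM (SD, n = 3), followed by Fgfbp3 at 3.80 ± 0.770, with no overlap between the libraries of these genes. Fgf3 at 2.14 ± 0.813, Fgf9 at 1.93 ± 0.708 and Fgf10 at 1.81 ± 0.684 overlapped each other, and the highest Fgf3 library, at 3.05, passed the lowest Fgfbp3 library, at 2.97. With the longest transcript as the length Fgf9, at 2.50, came before Fgf3, at 2.17. Lower were Fgf7 at 0.279 ± 0.0631 and Fgf18 at 0.191 ± 0.0868, whose ranges also overlapped. Fgf2 came last of the tested genes at 0.0239 ± 0.0161.

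In Smad7-/- the order at the top differed. Fgfbp3 averaged 6.41 ± 0.159 RPKM and Fgf1 6.24 ± 0.991, and the range of Fgf1, from 5.47 to 7.36, enclosed that of Fgfbp3. With the longest transcript as the length Fgf1 stood at 8.56 there, above Fgfbp3 at 6.41, so the order of these levels depends on the length used. Fgf3 at 2.69 ± 0.471, Fgf10 at 2.58 ± 0.829 and Fgf9 at 1.93 ± 0.495 overlapped as in wild type. Fgf7 at 0.477 ± 0.108 and Fgf18 at 0.430 ± 0.0302 overlapped too, and Fgf2 stood at 0.0864 ± 0.0185.

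**Figure D3:**
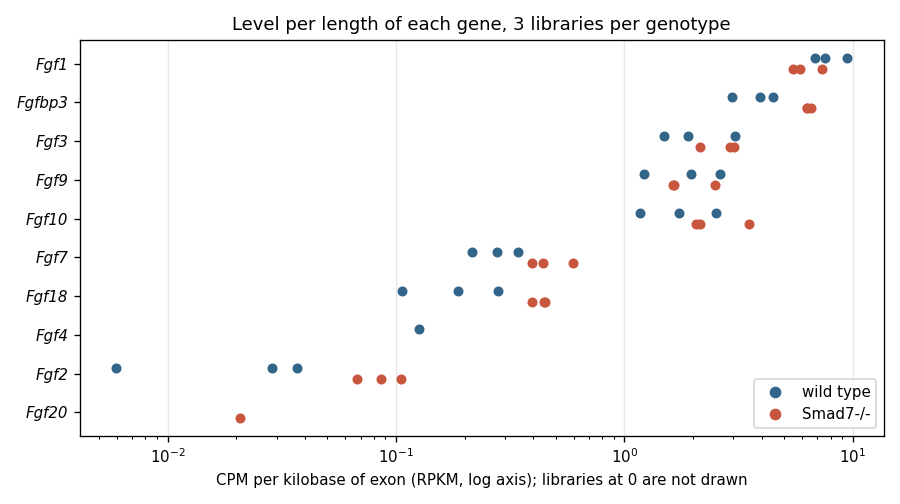
Level per kilobase of exon (RPKM, logarithmic horizontal axis) of each gene in each library, ordered by the wild-type mean. Fgf1 and Fgfbp3 lie apart in wild type (6.85 to 9.46 against 2.97 to 4.50 RPKM) and share a range in Smad7-/-, and libraries at 0 are not drawn.

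Of 51 further FGF pathway genes in 5 lists, 42 were tested and 0 passed by edgeR or DESeq2. The median log2 difference of the 8 tested ligand and carrier genes was 0.63, and 0.42 without Fgf2 and Fgf18, which met the filter through Smad7-/- alone. Over all tested genes it was -0.0028. As the ligand and carrier genes were chosen with earlier results of these data known, the gap is a description only. Among other secreted ligands 3 of 9 were tested, with a median of -0.16. Fgf16, a relative of Fgf9, averaged 5.44 ± 0.267 CPM in the controls and 4.88 ± 0.236 in Smad7-/- (SD, n = 3), with no overlap of libraries and a log2 difference of -0.16 ± 0.16 (SE). Fgf5 stood at 0.29 ± 0.50 and Fgf21, a metabolic hormone, at -0.87 ± 0.48 on the same scale. Fgf6 had no count in any library.

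No receptor gene passed. Per kilobase of exon Fgfr1 stood at 89.0 RPKM in wild type, above every ligand, while Fgfr3 at 4.14 was below Fgf1. Fgfr1 averaged 879 CPM in wild type and 841 in Smad7-/- (log2 -0.06 ± 0.11 SE; 95% interval -0.30 to 0.17), and Fgfr2, the main receptor of Fgf3, Fgf7 and Fgf10 in epithelium, 357 and 374 (0.07 ± 0.10). Fgfr3 stood at 0.13 ± 0.12. In this list 6 of 8 genes were tested, with a median of 0.08 and a range from -0.09 to 0.31. Fgfbp1, another FGF carrier, named after its values were seen, had 0.472 CPM in wild type and 0.446 in Smad7-/- (-0.09 ± 0.39).

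Feedback inhibitors and targets, which FGF signalling induces, had a median of 0.10 over 11 tested genes of 12, from -0.25 to 0.19. The MAP kinase inhibitor Spred1 stood at 0.10 ± 0.12, the transcription factor gene Etv5 at 0.14 ± 0.11 and the phosphatase gene Dusp6 at 0.07 ± 0.12 (log2, SE). The summed level of this list ran from 404 to 547 CPM in wild type and from 496 to 507 in Smad7-/-, so the wild-type range enclosed the other. The intracellular relatives Fgf11 to Fgf14, which bind sodium channels and do not signal outside cells, had a median of -0.02. Among them Fgf13, Fgf12 and Fgf14 stood at -0.04 ± 0.24, -0.35 ± 0.23 and 0.01 ± 0.40. The heparan sulfate list had a median of 0.07 over 18 genes, with the core protein genes Gpc3, Sdc1 and Gpc1 at 0.18 ± 0.10, -0.0019 ± 0.11 and -0.06 ± 0.10. A single pathway gene of the 42 tested had an unadjusted p under 0.05, against 5.14% of all tested genes. It was the glypican gene Gpc6 (0.48 ± 0.18 SE; edgeR adjusted p = 0.841), named after its value was seen.

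**Figure D4:**
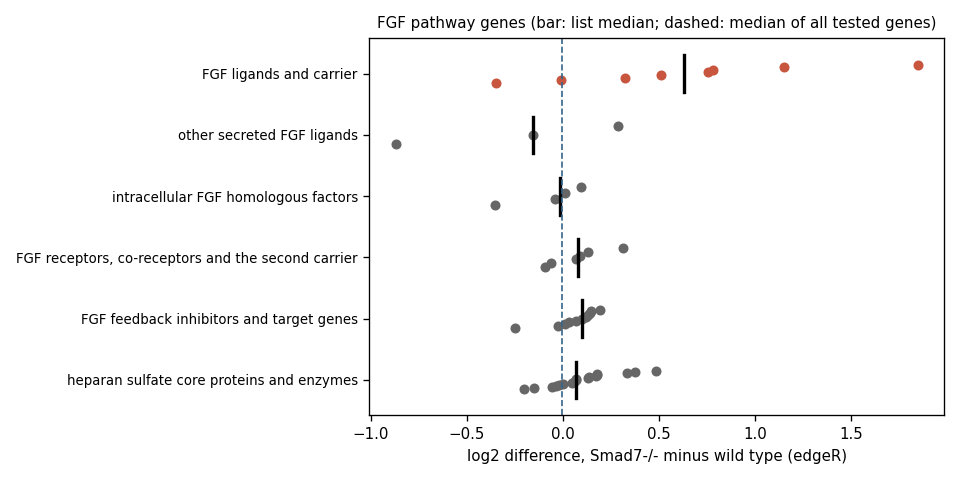
Log2 difference between Smad7-/- and wild type (horizontal axis) of each tested gene in the ligand and carrier group and in 5 pathway lists, with list medians as bars. The receptor, feedback and heparan sulfate genes lie within 0.50 of 0, and the ligand and carrier genes spread from -0.35 to 0.78 apart from Fgf2 and Fgf18 (1.84 and 1.15), which met the filter on low counts only through Smad7-/-.

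Summed markers of several cell types were also higher in Smad7-/-, beside the genes whose groups did not overlap. The 9 dental mesenchyme genes summed to 238 to 308 CPM in wild type and 372 to 403 in Smad7-/-, with all 9 higher on average and 0 passing in edgeR. The 7 macrophage genes summed to 86.4 to 118 and 145 to 160 CPM, also without overlap and with 0 passing. Gene by gene, Smad7-/- lay wholly above wild type for 8 of the 9 mesenchyme and 5 of the 7 macrophage genes, against 4.97% of all tested genes. DESeq2 called 1 mesenchyme and 2 macrophage genes on the higher side, against 0.268% of all tested genes. These lists were also chosen with earlier results of these data known. Bone genes (3) summed to 233 to 244 and 263 to 340 CPM, where Ibsp alone was without overlap while the groups of Sp7 and Bglap overlapped. Schwann cell genes (3) summed to 4.86 to 7.22 and 7.35 to 8.75, with 1 of the 3 without overlap. Their part in the values of Fgfbp3, Fgf2, Fgf7 and Fgf18 was not tested.

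Other marker sums were lower or overlapped. Of 7 red blood cell genes 5 were in the tables, with sums of 35.3 to 50.5 CPM in wild type and 16.8 to 28.7 in Smad7-/-, and Hba-a1 and Hba-a2 were listed at 0. The 6 skeletal muscle genes summed to 2.39 to 5.0 and 1.44 to 2.28 CPM. Dental epithelium (8 genes, 9153 to 10270 against 7684 to 9721 CPM) overlapped, as did enamel knot genes other than FGFs (12 genes, 1173 to 1323 against 1100 to 1203). Endothelium (5 genes, 206 to 312 against 287 to 329), cartilage (4 genes, 83.1 to 93.3 against 85.4 to 95.8), neurons (4 genes, 321 to 361 against 278 to 348) and the 4 enamel and dentin genes (11514 to 27245 against 11733 to 15642) overlapped too. Most of the neuron sum was Tubb3 (298 CPM on average in wild type), and most of the cartilage sum Sox9 (66.0). Those sums therefore say little about the other genes of their lists. The enamel knot sum covers genes that differed in opposite directions. Of its 11 tested genes, Cdkn1a and Lef1 lay wholly above wild type and Shh and Wnt10a wholly below. Over all tested genes 4.97% and 3.91% did so. Cdkn1a was called by DESeq2 (adjusted p = 0.00949) and not by edgeR (adjusted p = 0.536). Of the 64 marker genes tested, 0 passed by edgeR, against 0.0262% of all tested genes, and 4 by DESeq2, all on the higher side, against 0.268%.

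The genes whose profile over the 6 libraries was closest to that of Fgfbp3 were Ctsk, Ddit4l, Acp5, Atp6v0d2 and Tcirg1. Likeness was the root mean square difference of log2(CPM + 0.5), each gene centred on its own mean, and the search covered the 10841 named genes that averaged 5 CPM or more. The difference was 0.11, 0.12, 0.12, 0.13 and 0.14 for these genes in that order, against a median of 0.43 over all genes searched. Ctsk encodes the collagen-degrading cathepsin of osteoclasts, Acp5 their tartrate-resistant phosphatase, and Atp6v0d2 and Tcirg1 subunits of the proton pump with which they acidify bone. Ddit4l encodes an inhibitor of mTOR signalling. Ctsk averaged 255 ± 55.7 CPM in wild type and 477 ± 17.5 in Smad7-/-, and Acp5 152 ± 39.4 and 269 ± 16.3 (SD, n = 3). In all 5, as in Fgfbp3, the groups did not overlap and wild-type library 1 was the lowest. Choosing genes by likeness to Fgfbp3 in these same libraries favours both traits, so they are no separate result. A profile over 6 libraries that share their depth and genotype labels is a description only.

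**Figure D5:**
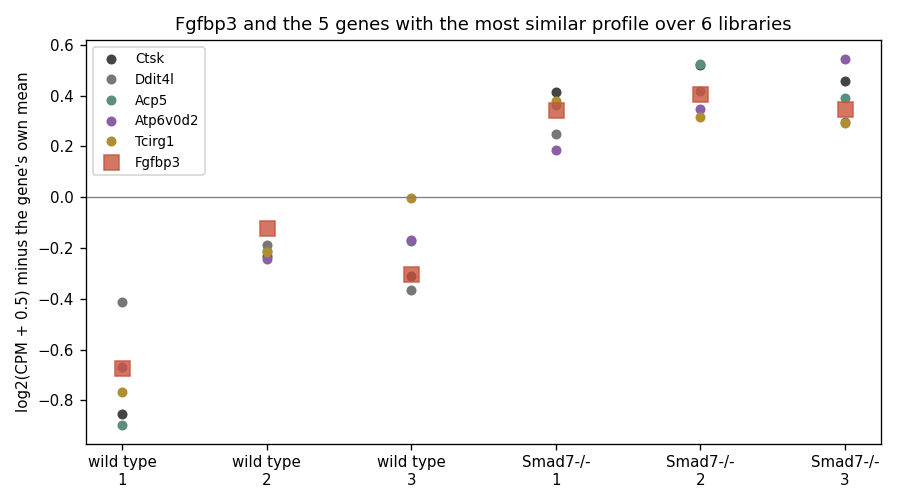
Log2(CPM + 0.5) minus the gene's own mean (vertical axis) in the 6 libraries, for Fgfbp3 (squares) and the 5 genes of most similar profile (circles). All 6 genes are lower in each wild-type library than in each Smad7-/- library, and wild-type library 1 is the lowest for each of them. The choice of the 5 genes by likeness to Fgfbp3 favours this.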

How the data were processed

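Per the labels, total RNA of tooth germs went into a TruSeq RNA kit, which keeps no strand; RNA selection is not given in the sources used here. Per the submitters' processing notes the authors used HISAT2, featureCounts, DESeq2 and the mm10 build, with versions not given in the sources used here. Each deposited file lists unnormalized counts by symbol for 1 library. Of their symbols 27 had been turned into dates, with at most 0.223% of a library's counts.

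Low genes were removed by edgeR's filterByExpr (count 10, total 15), and the rest tested in edgeR 4.0.16 (R 4.3.3; TMM, robust quasi-likelihood fit, 3 against 3 libraries, no covariate), with Benjamini-Hochberg adjustment over all 15284 tested genes. The SE is the unshrunk log2 difference over the root of F. Alternatives were DESeq2 1.42.0, limma-voom (limma 3.58.1), other size factors, no filter, a fit that is not robust, each library left out, the replicate number as a block, sex and the set of libraries as covariates, library totals, and the longest transcript as length. The scripts were tested on simulated data. Exons came from GENCODE M21 and promoters from RefSeq. Figures used matplotlib 3.10.9.

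Every one of the 10 genes is named, with genes of a pathway list that passed or otherwise its 3 tested genes of highest mean CPM, neighbours of Fgf3 and Fgf4, and the 5 genes most like Fgfbp3; other genes, Amelx, Dspp, Dkk4, Xist and Ddx3y among them, were named with their values seen. The genes and lists were chosen with earlier results of these data known.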

Additional observations from a re-analysis of the deposited data

How the results depend on the processing

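No alternative of the edgeR fit called any of the 10 genes, and limma-voom called 0, while DESeq2 called 1, Fgfbp3 (log2 0.75), and with 1 library left out 0 to 1 (Fgfbp3 from 0.61 to 0.90). Replicate numbers match between groups in the labels only by number: residuals of same-numbered libraries correlated at 0.169, -0.0339 and 0.0927, so pairing was not assumed. With the replicate block the smallest adjusted p of the 8 was 0.196, for Fgfbp3 at 0.77, and the block left 4 genes called over the whole table. Fgf9, close to 0, turned positive by limma-voom (5.03e-04), with the replicate block (0.0322), with sex as a covariate (0.0271) and, with 1 library left out, at up to 0.27 in edgeR and 0.28 in DESeq2, from lows of -0.25 and -0.26 (DESeq2 0.0970 and 0.0891 without Smad7-/- library 2 and 3). The other 7 tested genes kept their sign in every alternative. Genes called over the whole table numbered 56 by DESeq2 and 1 to 7 with 1 library left out of edgeR (2, 1 and 7 without Smad7-/- library 1, 2 and 3). With the longest transcript as length Fgf1 stood at 10.9 RPKM in wild type and 8.56 in Smad7-/-, and in Smad7-/- Fgf9 at 2.49 and Fgf18 at 0.470. Causes were not tested. Low counts limit what can be said of Fgf2 and Fgf18 (24 and 34 counts in all of wild type), Fgf4 and Fgf20.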
